A study of Mus musculus with 10 samples.

Results

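miR-802 is a microRNA (miRNA) made in liver, pancreas, kidney and intestine, and it was followed here as 1 of 285 mature miRNAs measured in 10 libraries of mouse liver. It was taken by name, as the single row miR-802 of the deposited table, and it was singled out because its level differed between the genotypes. That difference is therefore described below without a test, and tests are kept for measures that did not choose it. The livers came from mice at 14 weeks of age, with 5 libraries from a liver knockout of Tsc1 (L-Tsc1KO, labelled TSC1 mutant) and 5 from littermate controls. Neither the promoter that drove the knockout, nor the strain or sex of the mice, is given in the sources used here. Tsc1 encodes a subunit of the TSC complex, which restrains the growth kinase mTORC1. No Tsc1 messenger RNA values were analysed here, which leaves the knockout itself unchecked.

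A miRNA guides the silencing machinery to messenger RNAs that pair with its seed, the short stretch near its 5′ end. In the liver of obese mice, miR-802 is known to be raised, and its excess there is known to impair glucose tolerance and insulin sensitivity. The series title ties loss of the TSC complex to gluconeogenesis through other miRNAs, those of the imprinted Dlk1-Dio3 locus, and miR-802 is not one of them.

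The hairpin of miR-802 lies at chr16:93369720-93369816 on the plus strand (GRCm38). It overlapped no other gene in GENCODE M21. The nearest gene on the lower side was the lincRNA 1810044K17Rik, 690 bases away on the same strand, and the next was 1810053B23Rik, 3051 bases away on the opposite strand. The nearest protein-coding genes were Setd4 at 213640 bases and Runx1 at 543570 bases. The RefSeq hairpin is shown to place the 2 mature arms, which are in capitals.
Mir802 hairpin: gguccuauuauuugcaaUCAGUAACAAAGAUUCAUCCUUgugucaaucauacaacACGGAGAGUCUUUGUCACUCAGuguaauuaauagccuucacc

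The deposited name carries no arm, so the values below cannot be assigned to 1 arm from the table. The 5p arm is the one usually studied as miR-802. Both arms are shown as RefSeq gives them, with the seed (bases 2 to 8) in capitals, beside the arms usually studied of the hepatocyte miRNAs with which miR-802 is compared. Missing is miR-122, whose name was not matched to RefSeq.
miR-802-5p: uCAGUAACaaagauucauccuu
miR-802-3p: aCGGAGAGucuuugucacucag
miR-192-5p: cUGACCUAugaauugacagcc
miR-215-5p: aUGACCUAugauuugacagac
miR-194-5p: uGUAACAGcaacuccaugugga
miR-148a-3p: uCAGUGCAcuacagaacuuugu
The seeds of miR-192-5p and miR-215-5p were the same, and miR-802 shared its seed with neither. Of 1679 RefSeq mature mouse miRNA names, 0 others had the seed of miR-802-5p and 0 others that of miR-802-3p. Of the 285 measured miRNAs, 254 (89.1%) were matched to RefSeq, and 0 of them shared a miR-802 seed. The unmatched names, miR-122 among them, were not checked for it. The mature 5p arm has 22 bases, of which 7 are G or C.

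All 10 libraries were deep, with 6228497 to 12129069 miRNA reads in controls and 6489735 to 10901280 in mutants. Control replicate 1 and Tsc1 mutant replicate 1 stood apart together: the median log2 deviation of let-7 miRNAs from the genotype mean was -1.48 and -1.17 in them. In control replicate 2, the 8 listed miRNAs of biliary epithelium and striated muscle had a median log2 excess of 2.99 over the remaining controls. Of these, miR-206 was not high, at 4.98 normalised reads against 4.00 to 20.5 in the remaining controls. Library numbers ran consecutively within each genotype, so an effect that followed them cannot be told apart from genotype. Values are normalised reads, that is, miRNA read counts that the authors scaled library by library. The labels number the replicates within each genotype without saying that each was a separate animal, so the spread and the p-values below are those between these libraries and may in part be technical.

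In controls, miR-802 stood at 408, 427, 644, 691 and 307 normalised reads in replicates 1 to 5. In Tsc1 mutants it stood at 1861, 1289, 1545, 1890 and 1329 normalised reads in replicates 1 to 5. The groups did not overlap, and the lowest mutant, replicate 2, held 1.86 times the level of the highest control, replicate 4. The mean level was 495 ± 165 in controls and, in mutants, 1583 ± 285 normalised reads (SD, n = 5 for both). The fitted log2 difference was 1.72 ± 0.24 (SE), a 3.30-fold higher level. Across all 285 miRNAs, every mutant lay above every control in 10.2% and below every control in 2.46%. Since miR-802 was chosen on this contrast, nothing is read from these shares. In bulk liver RNA, more cells that make miR-802 and more miR-802 per cell cannot be told apart.

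**Figure D1:**
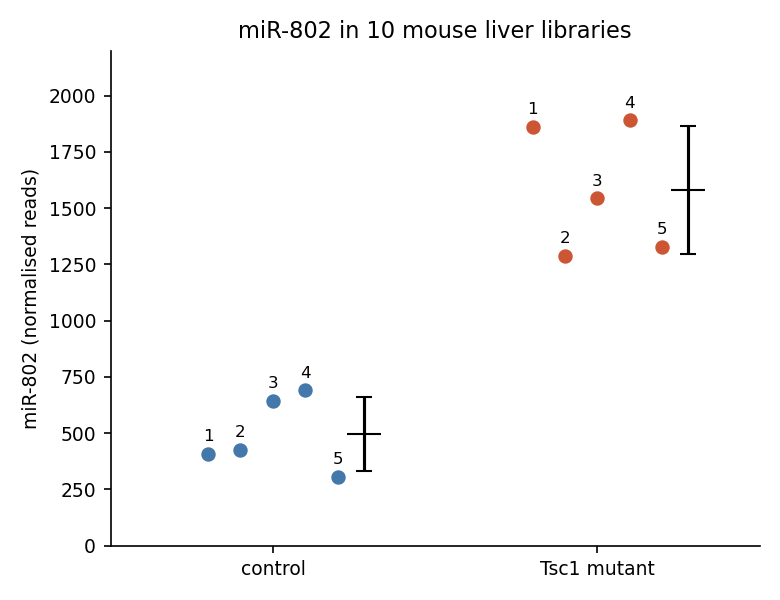
miR-802 in normalised reads on a linear axis from 0, with 1 point per library labelled by its replicate number and the mean with SD beside each genotype. The 5 controls lie between 307 and 691 and the 5 Tsc1 mutants between 1289 and 1890.

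Behind these values stood whole reads that could be recovered, because each library's values were multiples of 1 step. miR-802 had 299 to 747 reads per library in controls and 1318 to 2142 in mutants. As a share of miRNA reads it ranged in controls from 0.00314% (95% exact binomial interval 0.00280 to 0.00352%) in replicate 5 to 0.00660% (0.00598 to 0.00727%) in replicate 4. In mutants the share ranged from 0.0139% (0.0132 to 0.0147%) in replicate 2 to 0.0204% (0.0195 to 0.0212%) in replicate 1. Intervals cover counting error only, because reads without molecular identifiers are not independent molecules.

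Libraries of the same genotype also differed in miR-802 by more than counting error. The coefficient of variation between libraries was 33.2% in controls and 18.0% in mutants, where counting alone would give 3.66 to 5.78% and 2.16 to 2.75%. The highest control held 2.25 times the level of the lowest, and the highest mutant 1.47 times that of the lowest. Within controls, replicates 3 and 4 were high and replicate 5 was low. Within mutants, replicates 1 and 4 were high and replicates 2 and 5 were low. The within-genotype SD was 0.39 on the log2 scale, against a median of 0.44 over all miRNAs and of 0.37 over the 40 nearest in mean level. In 160 of the 285 miRNAs the SD was larger, so miR-802 was of ordinary variability for this table.

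Among liver miRNAs miR-802 was of middle rank. By reads, which also carry the unequal capture of different miRNAs by small RNA libraries, it ranked 108 to 135 of 285 in control libraries and 83 to 92 in mutant libraries. The 2 sets of ranks did not overlap. By mean level it was at position 123 in controls and at 91 in mutants. In controls its nearest neighbours were miR-342-3p at 506 ± 114 and miR-671-3p at 480 ± 142 normalised reads (SD, n = 5 each), which do not differ from it beyond their spread. In mutants the nearest were miR-451 at 1633 ± 522 and miR-351 at 1532 ± 230 normalised reads (SD, n = 5 each), again within their spread.

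**Figure D2:**
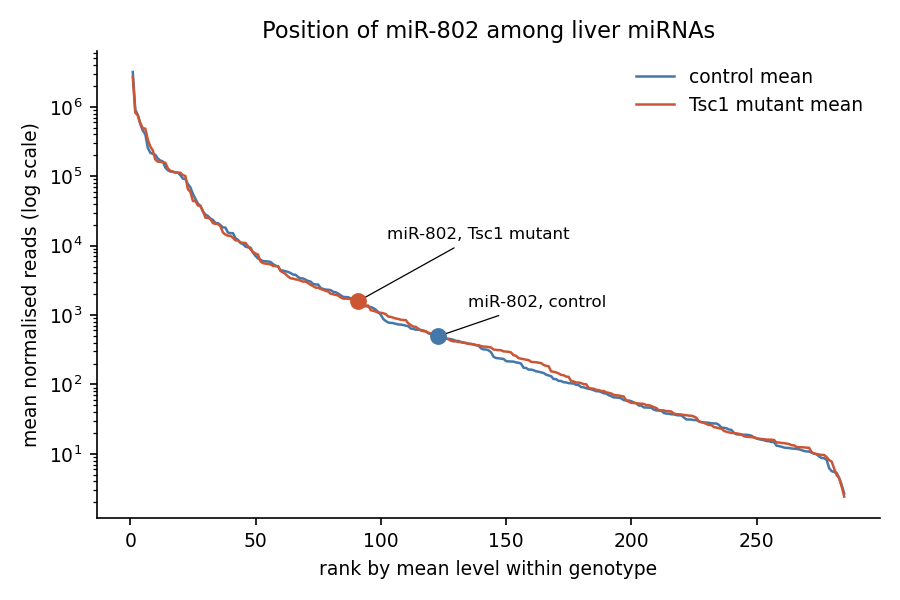
Mean normalised reads of the 285 miRNAs on a log axis against their rank within each genotype, with 1 line per genotype and miR-802 marked. The curves of both genotypes lie close together, and miR-802 moves from position 123 in controls to 91 in Tsc1 mutants.

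The 4 miRNAs just above and the 4 just below miR-802 by mean over all libraries were miR-378b, miR-484, miR-328, miR-128, miR-450a, miR-144, miR-362-3p and miR-1a. Their means ran from 821 to 1427 normalised reads in controls, all above miR-802, and from 350 to 1152 in mutants, all below it. The choice by overall mean, which includes the difference of miR-802 itself, fixes that order for miRNAs that differ little, so nothing is read from it. By limma 0 of the 8 passed an adjusted p of 0.05, against 13% of all miRNAs called in either direction. At an unadjusted p under 0.05 there was 1, miR-484, and by limma-voom 0 were called. Mean miR-484 was 1340 ± 221 in the control libraries against 950 ± 62.9 normalised reads in the mutant libraries (SD, n = 5 each), without overlap, with a log2 difference of -0.48 ± 0.15 (SE) that missed the threshold (limma adjusted p = 0.0542). It passed as lower in 5 of 23 alternatives, with the smallest adjusted p of 0.00656 in limma with array weights, and at -0.56 (limma adjusted p = 0.0113) without control replicate 1. miR-328 passed as lower in 1 alternative, limma with array weights (log2 difference -0.74, adjusted p = 0.0341).

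The other hepatocyte miRNAs did not show a difference of this size. miR-122, which makes up much of the liver's miRNA and sustains lipid and cholesterol metabolism, averaged 3174502 ± 763064 normalised reads in control libraries and 2699953 ± 444090 in mutant libraries (SD, n = 5 each). This was a log2 difference of -0.21, with a 95% interval of -0.63 to 0.20 and a limma adjusted p of 0.608. miR-192 and miR-194 were at -0.01 (95% interval -0.28 to 0.27) and -0.03 (-0.34 to 0.27). Mature miR-194 has a copy near miR-192 on chromosome 19 and another near miR-215 on chromosome 1, which the values do not separate. miR-215, which has the seed of miR-192, was at -0.05 (-0.39 to 0.28), and miR-148a, a regulator of hepatic cholesterol uptake, at 0.06 (-0.19 to 0.30). The 5 had a median log2 difference of -0.03 beside -0.06 over all 285 miRNAs. By limma 0 of the 5 were called, with 0 at an unadjusted p under 0.05 and 0 by limma-voom. Across all 285 miRNAs 13% were called in either direction, most of them in the Dlk1-Dio3 locus. For a list of 5, a count of 0 is therefore read no further.

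The upper bounds of these 5 intervals, at most 0.30 on the log2 scale, give the largest increase that each interval still holds. Of the 5, miR-192, miR-194 and miR-148a changed sign under some other scalings or weightings without passing the threshold. Summed, the 5 other hepatocyte miRNAs ranged from 3424494 to 5491749 normalised reads in controls and from 3712241 to 4564330 in mutants, so the groups overlapped.

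The ratio of miR-802 to miR-122 therefore differed between the genotypes as well. Per 1000 normalised reads of miR-122 there were 0.198, 0.152, 0.172, 0.174 and 0.0930 of miR-802 in control replicates 1 to 5. In mutant replicates 1 to 5 there were 0.894, 0.427, 0.651, 0.636 and 0.435. Every mutant lay above every control. This ratio does not depend on how libraries were scaled, but it uses the contrast that chose miR-802.

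**Figure D3:**
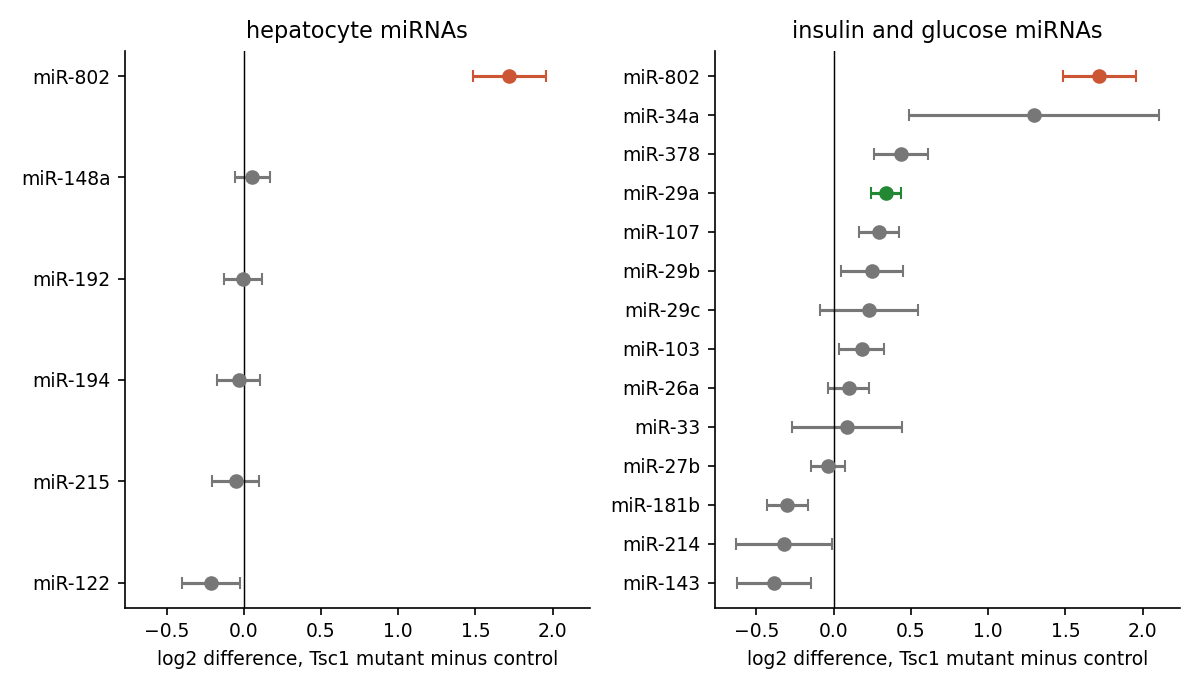
Log2 difference, Tsc1 mutant minus control, with SE bars, for miR-802 (orange), other members of the hepatocyte list on the left and members of the insulin and glucose list on the right; green marks a miRNA past the limma threshold. miR-802 is at 1.72 and the other hepatocyte miRNAs lie between -0.21 and 0.06. Among the members other than miR-802, which is shown without a test, miR-29a at 0.34 is the single called one.

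Among miRNAs linked to insulin action or glucose output, the list in which miR-802 is usually named, 1 of 13 others rose and 0 fell by limma. Called as higher were 10.9% of all miRNAs and as lower 2.11%. Most of those called higher lie in the Dlk1-Dio3 locus, where this list has no member. Outside that locus, with miR-802 left aside, 2 miRNAs were called higher, and miR-29a of this list is 1 of them. A count of 1 is too small to read further. The list's median log2 difference was 0.18. miR-29a, of a family that dampens insulin signalling in liver, averaged 92084 ± 7801 normalised reads in control libraries and 116048 ± 5673 in mutant libraries (SD, n = 5 each). Its control libraries ranged from 85011 to 103825 and its mutant libraries from 107539 to 122684, so the groups did not overlap. The log2 difference of 0.34 ± 0.10 (SE) passed (limma adjusted p = 0.0395). That call was lost in 14 of 23 alternatives, among them leaving out control replicates 2, 3, 4 or 5 or any 1 mutant library, where the adjusted p of limma ran from 0.0638 to 0.116.

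Other members of that list stayed short of the threshold. miR-378, which lies in an intron of the mitochondrial coactivator gene Ppargc1b, was at 0.44 ± 0.18 (SE) on the log2 scale (limma adjusted p = 0.165). miR-107, one of a pair of miRNAs that lower hepatic insulin sensitivity, was at 0.29 ± 0.13 (limma adjusted p = 0.205), and its partner miR-103 at 0.18 ± 0.14. miR-34a, which p53 switches on, was at 1.30 ± 0.81 (limma adjusted p = 0.424), the largest increase of any miRNA outside the Dlk1-Dio3 region apart from miR-802, though short of the threshold. It passed as higher without control replicate 1. miR-143, another miRNA raised in obese liver, was at -0.39 ± 0.24, and miR-181b at -0.30 ± 0.13. Every mutant library lay below every control library for miR-181b, although its limma adjusted p was 0.205.

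On chromosome 16 the nearest other miRNA of the table was miR-155, 8.66 megabases from miR-802. Of the 4 listed miRNAs of that chromosome, miR-155, miR-99a, let-7c and miR-125b-5p, 0 were called by limma, 0 had an unadjusted p under 0.05, and 0 were called by limma-voom. miR-155, a miRNA of activated immune cells, was at 0.49 ± 0.27 (SE) on the log2 scale (limma adjusted p = 0.338). let-7c, the most abundant, was at -0.06 ± 0.49. A wider look, added after the values were seen, took all 11 other table names with a RefSeq copy on the chromosome. Of these 0 were called by limma and 1, miR-484, had an unadjusted p under 0.05. Their log2 differences ran from -0.66 to 0.49. As 13% of all 285 miRNAs were called in either direction, most of them in the Dlk1-Dio3 locus, nothing is read from these counts.

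Against the whole table, 27 miRNAs had a larger log2 difference than miR-802, and all 27 have a hairpin between Meg3 and the end of Mirg on chromosome 12, the Dlk1-Dio3 region. The table holds 31 miRNAs of that region. Outside the region, with miR-802 left aside because it was chosen on this contrast, 2 miRNAs were called as higher, miR-29a and miR-137.

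The miRNAs with the most similar course over the 10 libraries came mostly from that region too. Likeness was measured as the root mean square difference between log2 levels, each centred on its own mean, over the 244 miRNAs whose mean reached 20 normalised reads. The nearest were miR-541 at 0.571, miR-382 at 0.572, miR-137 at 0.591, miR-1193-3p at 0.595 and miR-127 at 0.618, against a median of 1.03 over the 244. All of them but miR-137 lie in the Dlk1-Dio3 region. The measure includes the genotype difference that chose miR-802.

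The nearest profiles still departed from that of miR-802 within genotypes. miR-541 stood at 491, 1071, 583, 853 and 458 normalised reads in control replicates 1 to 5 and at 3890, 4395, 4027, 4456 and 2662 in mutant replicates 1 to 5. Its highest control was replicate 2 and its lowest mutant replicate 5, where miR-802 had its highest control in replicate 4 and its lowest mutant in replicate 2. miR-137 averaged 103 ± 38.7 in control libraries and 185 ± 34.4 normalised reads in mutant libraries (SD, n = 5 each), a smaller difference than that of miR-802.

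**Figure D4:**
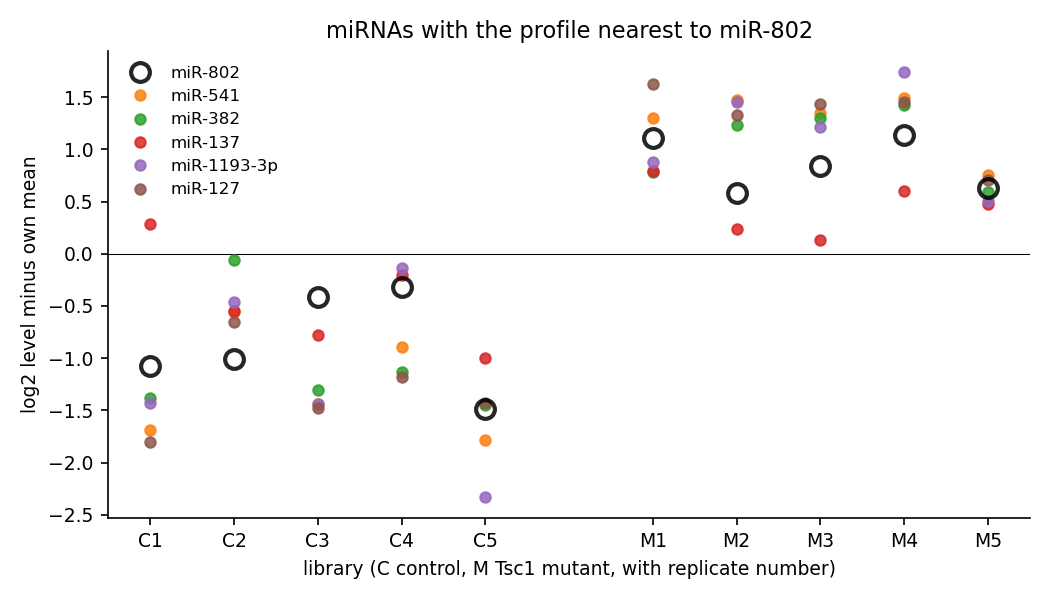
Log2 level of miR-802 (open black rings) and of the 5 miRNAs with the nearest profile, each minus its own mean, for each control (C) and Tsc1 mutant (M) library. miR-802 lies below 0 in all 5 controls and above 0 in all 5 mutants, while miR-541 is highest among controls in C2 and lowest among mutants in M5.

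To ask whether miR-802 follows other hepatocyte miRNAs from library to library, genotype means were removed and the deviations compared over the 10 libraries. Of 5 relations, 0 passed. The largest was with miR-194, with Pearson r = 0.64 (2-sided exact permutation within genotype p = 0.133, adjusted p = 0.663) and Spearman rho = 0.37 (exact permutation p = 0.369, adjusted p = 0.901). It rested on control replicates 4 and 5, the 2 libraries farthest from the median of miR-802. Without them r was -0.19. In control replicate 4 both miRNAs were at their highest, and in control replicate 5 both at their lowest among controls.

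For miR-122 the Pearson r was 0.26 (exact permutation p = 0.576, adjusted p = 0.918) and the Spearman rho 0.31 (exact permutation p = 0.446, adjusted p = 0.901), and r was 0.22 without the 2 libraries. For miR-192 r was 0.16 (exact permutation p = 0.772) and rho 0.055 (exact permutation p = 0.901). For miR-215 r was 0.097 (exact permutation p = 0.814) and rho 0.19 (exact permutation p = 0.652). For miR-148a r was 0.036 (exact permutation p = 0.918) and rho 0.12 (exact permutation p = 0.774). Each of these 3 had an adjusted p of 0.918 for r and of 0.901 for rho. Without the 2 libraries r was 0.59 for miR-192, 0.67 for miR-215 and 0.50 for miR-148a, so these values also turned on those libraries. For all but miR-192 the sign of r differed between controls and mutants, so the pooled values are not shown to be common to both genotypes. With 5 libraries a genotype, relations within 1 genotype alone were not tested, and these p-values do not show that miR-802 varies independently.

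**Figure D5:**
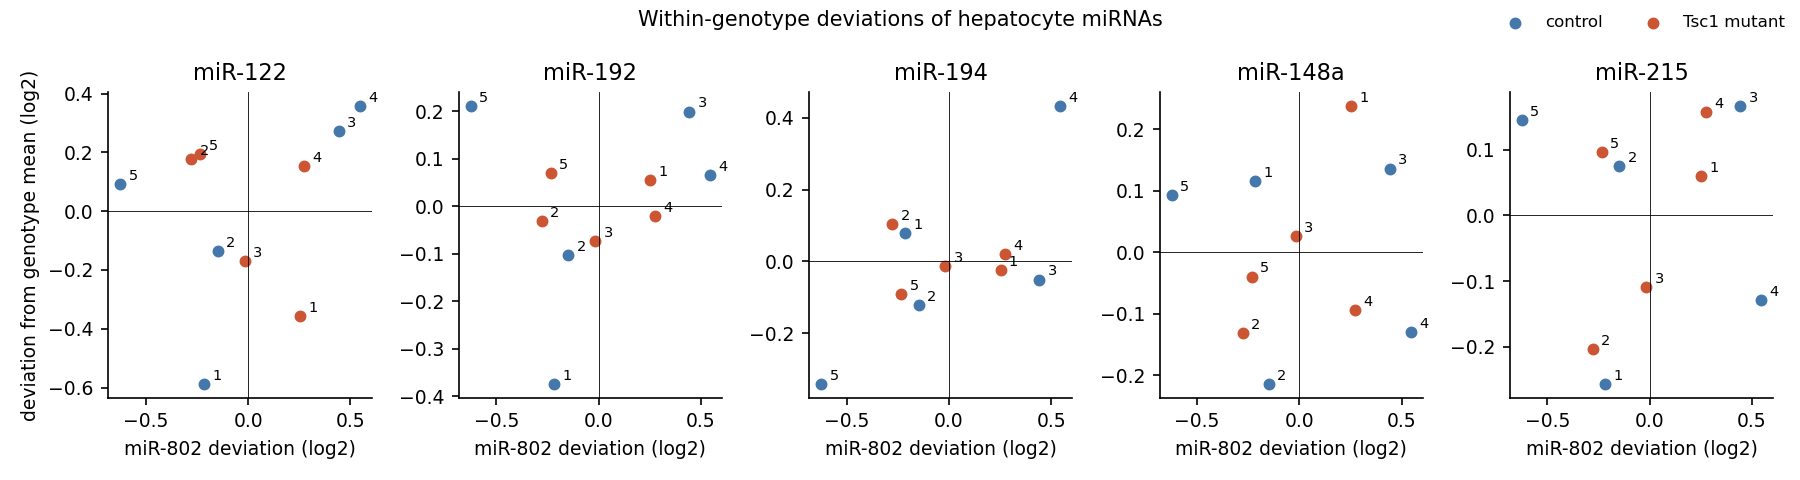
Deviations from the genotype mean on the log2 scale, miR-802 on the horizontal axis and 1 other hepatocyte miRNA on the vertical axis in each panel, with 1 point per library labelled by replicate number and coloured by genotype. Control replicates 4 and 5 lie at the 2 ends of the horizontal axis, and in the miR-194 panel also at the 2 ends of the vertical axis.

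As a description over all 244 miRNAs, the within-genotype deviations of miR-802 were most like those of miR-501-5p (r = 0.81), miR-149 (r = 0.69), miR-194 (r = 0.64), miR-28 (r = 0.60) and miR-28c (r = 0.59). They were most opposed to those of miR-183 (r = -0.69), miR-720 (r = -0.69) and miR-182 (r = -0.68). The median r was 0.0067. All these values come from the same 10 libraries and share their scaling and depth. miR-501-5p had a mean of only 31.1 normalised reads in controls and 24.2 in mutants. miR-720 stood at 2916 normalised reads in control replicate 5 and 1858 in mutant replicate 2, against 10.4 to 79.9 in the remaining libraries. Control replicate 5 and mutant replicate 2 also had the lowest miR-802 of their genotype, so the r of miR-720 leans on them. miR-149 went the other way between genotypes, at 384 ± 195 in control libraries and 112 ± 16.6 normalised reads in mutant libraries (SD, n = 5 each), with a log2 difference of -1.67 ± 0.29 (SE).

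Markers of other cells that the tissue could hold were looked at beside miR-802. Over 9 cell type lists with 30 miRNAs in the table, 0 were called by limma, 3 had an unadjusted p under 0.05 (miR-133a, miR-150 and miR-7a, all lower in mutants), and 0 were called by limma-voom. The share called by limma over all 285 miRNAs was 13%, most of it from the Dlk1-Dio3 locus, so these counts are read no further. miR-7a passed as lower in 2 of 23 alternatives, without both libraries numbered 1 (limma adjusted p = 0.0341) and with array weights (adjusted p = 0.0299). miR-133a passed as lower in 1 alternative, limma with array weights (adjusted p = 0.0358). It lay near the floor, with 1 to 6 reads per library in mutants and 5 to 16 in controls apart from 140 in control replicate 2. Of the pancreas list miR-7a and miR-375 were in the table, 2 of 5, and their sum ranged from 15811 to 23763 normalised reads in controls and from 13353 to 17198 in mutants. That sum was mostly miR-7a. By itself, miR-375 was at 990 normalised reads in control replicate 2. It was at 32.0 to 66.7 in the remaining controls and 22.1 to 55.6 in mutants. The acinar miRNAs miR-216a, miR-216b and miR-217 have no row in the table as used here. Of the kidney tubule list miR-10a and miR-10b were present, 2 of 4, with a sum of 61280 to 75347 in controls and of 58061 to 75037 in mutants. The intestinal list had 3 of 3, with a sum of 133816 to 228675 in controls and of 155704 to 177752 in mutants, of which miR-194 and miR-215 are also hepatocyte miRNAs. The remaining member, miR-31, was at -0.10 ± 0.16 (SE) on the log2 scale.

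Biliary epithelial miRNAs, 5 of 5 in the table, summed to 4996 to 35789 normalised reads in controls, with the highest in replicate 2, and to 3126 to 7014 in mutants. The most abundant, miR-200b, was at -0.68 ± 0.54 (SE), and miR-200a, with the smallest p, at -0.74 ± 0.47. Leukocyte miRNAs, 5 rows for 4 names, summed to 4782 to 7574 in controls and 5168 to 7481 in mutants, with miR-142-5p at 0.08 ± 0.17 and miR-150 at -0.47 ± 0.18. The 2 arms of endothelial miR-126 summed to 113035 to 160119 in controls and 114892 to 160253 in mutants, with miR-126-3p at -0.02 ± 0.15 and miR-126-5p at -0.09 ± 0.15. Stellate and smooth muscle miRNAs, 5 rows for 4 names, summed to 164279 to 363788 in controls and 131317 to 243057 in mutants, led by miR-143.

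Erythroid miRNAs, 3 of 3, summed to 3886 to 5924 in controls and 3431 to 6533 in mutants, with miR-144 at 0.32 ± 0.21 and miR-486 at 0.11 ± 0.35. Striated muscle miRNAs, 3 of 5, summed to 268 to 5638 in controls and 151 to 919 in mutants, with miR-1a at -1.27 ± 0.81 and miR-133a at -1.99 ± 0.72. Of the kidney list miR-10b was at -0.53 ± 0.56 and miR-10a at -0.08 ± 0.12, and of the pancreas list miR-7a at -0.32 ± 0.14. Each list's sums overlapped between genotypes, and a part of such cells in the miR-802 difference was not tested. In miR-802 itself, control replicate 2 was near the middle of the controls, and the log2 difference was 1.68 without that library and 1.60 without both libraries numbered 1.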

How the data were processed

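Small RNA libraries from TRIzol-extracted total RNA of mouse liver (10 samples) were sequenced (Illumina, per the labels' protocols). The values are a deposited normalised signal, miRNA read counts that the authors scaled by 1 factor per library. DESeq is named in the submitters' processing notes. For aligner, miRNA annotation, genome build and filters, the sources used here give nothing. Every value was a whole multiple of a library's step within 0.001 (100% of values), which gave whole reads. miR-802 was taken by name. The members and lists were chosen with earlier results of these data known.

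The fit was made with limma 3.58.1 (R 4.3.3) on log2 of the normalised value plus 1 (genotype, intensity trend, Benjamini-Hochberg over all 285 miRNAs, threshold 0.05, mean of at least 5). Log2 differences are on that scale and are too small for miRNAs with few reads. Within-genotype relations used all 14400 rearrangements of libraries within genotypes, adjusted over 5 relations. The text names miR-802, every other hepatocyte list member, called list members (otherwise the smallest p and the most abundant), 4 neighbours by mean level on each side, the 5 nearest profiles, and the 5 highest and 3 lowest within-genotype correlations. Other members of the insulin and glucose list, and miR-206 and miR-375, were named after their values were seen. Fits were tested on simulated data. Alternatives were other pseudocounts, filters, scalings and models, and left-out libraries. Sequences are from RefSeq (GRCm38.p6) and gene positions from GENCODE M21. Figures were drawn with matplotlib 3.10.9.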

Additional observations from a re-analysis of the deposited data

Results flagged for a closer look

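Among 40 sets of 5 libraries looked at, the highest or lowest value lay far from the rest in 5. For normally distributed values chance gives about 2 (about 1 in 20). These were unlogged reads, sums and a ratio, for which that rate is not known, so no excess is read from the count. None of the 5 concerned miR-802, its ratio to miR-122 or a single hepatocyte miRNA. The groups overlap because lists share members. Control replicate 2 stood apart as the highest control for the biliary epithelial sum, at 35789 against 4996 to 6088 normalised reads, and for the striated muscle sum, at 5638 against 268 to 559. Control replicate 1 was the lowest control for the endothelial sum, at 113035 against 151157 to 160119. Control replicate 1 was also the highest control for the pancreas sum, at 23763 against 15811 to 17846, and Tsc1 mutant replicate 1 the highest mutant for that sum, at 17198 against 13353 to 14286. That sum was mostly miR-7a. Its other member, miR-375, which was not a set of its own, was instead highest in control replicate 2. There it was at 990 normalised reads, against 32.0 to 66.7 in the remaining controls. In these libraries miR-802 was at 427, 408 and 1861 normalised reads, each inside its genotype's range, and a part of them in the difference was not tested.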

How the results depend on the processing

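The log2 difference of miR-802 lay between 1.54 and 1.86 in all 23 alternatives and moved by less than the spread between libraries in each. Leaving out 1 of 5 libraries could not have moved it by more than that spread. As miR-802 was also chosen on this difference, the range is a description only. Over all miRNAs, 28 to 40 were higher. The 6 lower ones became 23 with array weights, 10 with the replicate block, 11 without both libraries numbered 1, and 13 without these and control replicate 2. With single libraries left out they numbered 2 to 10 (10 without control replicate 1, 3 without control replicate 3 or 5, 2 without Tsc1 mutant replicate 4). In the list of 5 other hepatocyte miRNAs and the list of 4 on chromosome 16, which does not hold miR-484, 0 were called in all 23 alternatives. In the insulin and glucose list, 0 were called with total count scaling, total without miR-122, upper quartile scaling, no trend and limma-voom, 3 with array weights (miR-29a, miR-107, miR-34a), 2 with the replicate block (miR-29a, miR-378), and 2 without both libraries numbered 1, with or without control replicate 2 (miR-29a, miR-34a). With single libraries left out the count ran from 0 to 2. Correlations of same-numbered deviations were 0.81, 0.16, -0.021, 0.46 and 0.048 for replicates 1 to 5, and only numbers 1 and 4 matched their own number best. As not every pair correlated, the numbers were not taken as a pairing, although the libraries numbered 1 deviated together. The cause of these shifts was not tested.

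Signs changed, short of the threshold, for differences near 0. With total count scaling the log2 differences were 0.040 for miR-192, 0.013 for miR-194 and 0.022 for miR-126-3p, with upper quartile scaling 0.027 for miR-192 and 0.0092 for miR-126-3p, and with limma-voom 0.040 for miR-192, 0.016 for miR-194 and 0.019 for miR-126-3p. With array weights they were -0.033 for miR-148a, 0.020 for miR-194, 0.019 for miR-126-5p and -0.17 for miR-486. Without both libraries numbered 1 they were 0.050 for miR-126-5p and -0.13 for miR-486, and without control replicate 2 as well, -0.037 for miR-148a, 0.0044 for miR-200b, 0.00069 for miR-126-5p and -0.12 for miR-486. With single libraries left out the ranges were -0.48 to 0.24 for let-7c, -0.82 to 0.0023 for miR-10b, -0.14 to 0.056 for miR-126-3p, -0.16 to 0.041 for miR-126-5p, -0.016 to 0.15 for miR-142-5p, -0.0042 to 0.089 for miR-148a, -0.099 to 0.048 for miR-192, -0.12 to 0.075 for miR-194, -0.18 to 0.025 for miR-31, -0.19 to 0.023 for miR-378b, -0.060 to 0.13 for miR-450a, -0.85 to 0.0044 for miR-200b (single and joint omissions) and -0.17 to 0.30 for miR-486.

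The relation to miR-148a was at r = -0.37 with the total without miR-122. Without both libraries numbered 1 it was -0.080 for miR-148a, -0.099 for miR-192 and -0.095 for miR-215. With single libraries left out r ran from -0.16 to 0.28 for miR-148a, from -0.046 to 0.67 for miR-192 and from -0.095 to 0.43 for miR-215. No relation passed in any of 14 alternatives. The TMM scaling and the negative binomial count test planned as alternatives were not run. The unit check set for them asks for more low values per library than the table has, although every value was a whole multiple of a step. The whole reads behind the shares, the counting error and limma-voom rest on that step alone. Depth limits little for miR-802, with at least 299 reads in each library.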
